A study of Daphnia magna with 16 samples.

Results

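The 120 array probes described here gave a lower signal in each of 12 mutant *Daphnia magna* females than in any of 4 wild type females. They were found by a rule on the normalized values deposited by the authors: the highest of the 12 mutant values had to lie below the lowest of the 4 wild type values, and the probe had to be marked well above background on all 4 wild type arrays. Of 51424 gene probes, 162 (0.315%) had such separated values. Of the 8649 probes marked on all 4 wild type arrays, 122 (1.41%) met the whole rule, and 120 remained after 2 probes named in the rule were left aside. Members were to be ranked by the gap between the lowest wild type and the highest mutant value and held to 150, a number that was not reached. The mirrored separation, with every mutant animal above every wild type animal, was found for 53 of 51424 probes (0.103%), and for 23 of 9603 (0.24%) of those marked on all 12 mutant arrays. The difference between mutant and wild type animals therefore chose the members. It is described below with no test.

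The arrays were hybridised with RNA of single whole females, 4 per clone. The mutants carry CRISPR-Cas9 insertions or deletions in the gene of tryptophan hydroxylase (TRH), the enzyme that starts serotonin synthesis. Clone 16 -/- and clone 17 -/- are bi-allelic mutants, clone 13 +/- is a mono-allelic mutant called T+, and the wild type F +/+, called W, is the clone from which all 3 mutants were made. Each genotype is 1 clonal line, so a mutation and other differences of that line cannot be told apart. The labels give the age as 5 days in one field and 4 days in another, whereas the methods describe adult females, de-brooded after a reproduction experiment. No probe is tied to TRH in the annotation used here, and none to a marker of a tissue or cell type, so neither could be checked. In whole animals, fewer cells of a type and less RNA per cell cannot be told apart.

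*Daphnia* sheds its cuticle at each moult, and an adult female moults between broods. The new cuticle is built of chitin, a polymer of N-acetylglucosamine, and of structural proteins, many of which bind chitin, and the genes of such proteins are switched on and off with the moult cycle in arthropods. The mevalonate pathway, which starts from acetyl-CoA, supplies arthropods with isoprenoids, among them the juvenile hormone family. These are the settings in which several named members are known.

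Only 14 members, of 12 gene models, had a name in the annotation, and it was the study that picked those names from these arrays. A further 78 had the identifier of a gene model and no name. The named members comprised 4 cuticular protein probes, 3 probes of hydroxymethylglutaryl-CoA synthase, 2 probes named nose resistant to fluoxetine protein 6-like, 2 enzymes of amino sugar metabolism, and alkylglycerone phosphate synthase, a beta 1,3-galactosyltransferase and contactin associated protein 1. Levels are log2 processed signals after quantile normalization, and the 4 values of a clone are those of animals 3, 5, 7 and 9, in that order.

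Genes of the cuticle held the member with the widest gap. CUST_123147_PI429715507, a cuticular protein 72 precursor, had levels of 3.92, 3.90, 4.03 and 3.77 in clone 16, 4.72, 3.78, 3.88 and 3.89 in clone 17 and 3.82, 3.96, 4.06 and 3.82 in T+, against 8.54, 9.53, 9.50 and 8.43 in W. No mutant animal had a signal marked well above background, and the 12 mutant values lay close together at the bottom of the scale. Where a clone has no marked array, only a bound of the difference can be given: the mean of W over the mean of the clone, with each dim value raised to the lowest marked signal of its array. By that bound the probe was at least 9.94-fold lower in clone 16, at least 8.13-fold lower in clone 17 and at least 7.34-fold lower in T+ than in W.

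A second gene model named cuticular protein 72 precursor, measured by CUST_67490_PI429715507, behaved differently among the mutants. Its levels were 4.68, 3.70, 7.28 and 4.18 in clone 16, 7.63, 5.76, 4.22 and 4.61 in clone 17 and 3.71, 3.82, 3.73 and 3.72 in T+, against 10.94, 9.10, 8.71 and 11.06 in W. Animal 7 of clone 16 and animal 3 of clone 17 were the only mutants marked well above background, and they stood far above the other mutants. T+ was at least 14.2-fold lower than W, with no marked array. The SD was 1.60 in clone 16, 1.53 in clone 17, 0.05 in T+ and 1.22 in W (n = 4 each).

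Cuticular protein 49Ag, named after a *Drosophila* gene of the chitin-binding RR family, stayed well above background in all animals. CUST_102541_PI429715507 had 8.95, 8.50, 12.49 and 9.12 in clone 16, 8.92, 9.37, 8.64 and 8.71 in clone 17 and 9.04, 8.61, 8.67 and 8.75 in T+, against 14.78, 13.56, 13.42 and 14.14 in W. Animal 7 of clone 16 came nearest to the W animals, and the other 11 mutants formed a narrow band. The mean was 18.5-fold lower in clone 16, 33.4-fold lower in clone 17 and 36.9-fold lower in T+ than in W.

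The fourth cuticle probe, CUST_87769_PI429715507, is named cuticular protein analogous to peritrophins 3-D2, a secreted protein type with chitin-binding domains. It had 4.31, 3.68, 5.81 and 3.65 in clone 16, 5.21, 4.67, 5.43 and 4.57 in clone 17 and 4.45, 3.68, 3.72 and 3.77 in T+, against 7.75, 6.62, 8.28 and 7.91 in W. Only animal 7 of clone 16 was marked among the mutants. The bound was at least 3.17-fold lower in clone 17 and at least 2.86-fold lower in T+ than in W.

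**Figure D1:**
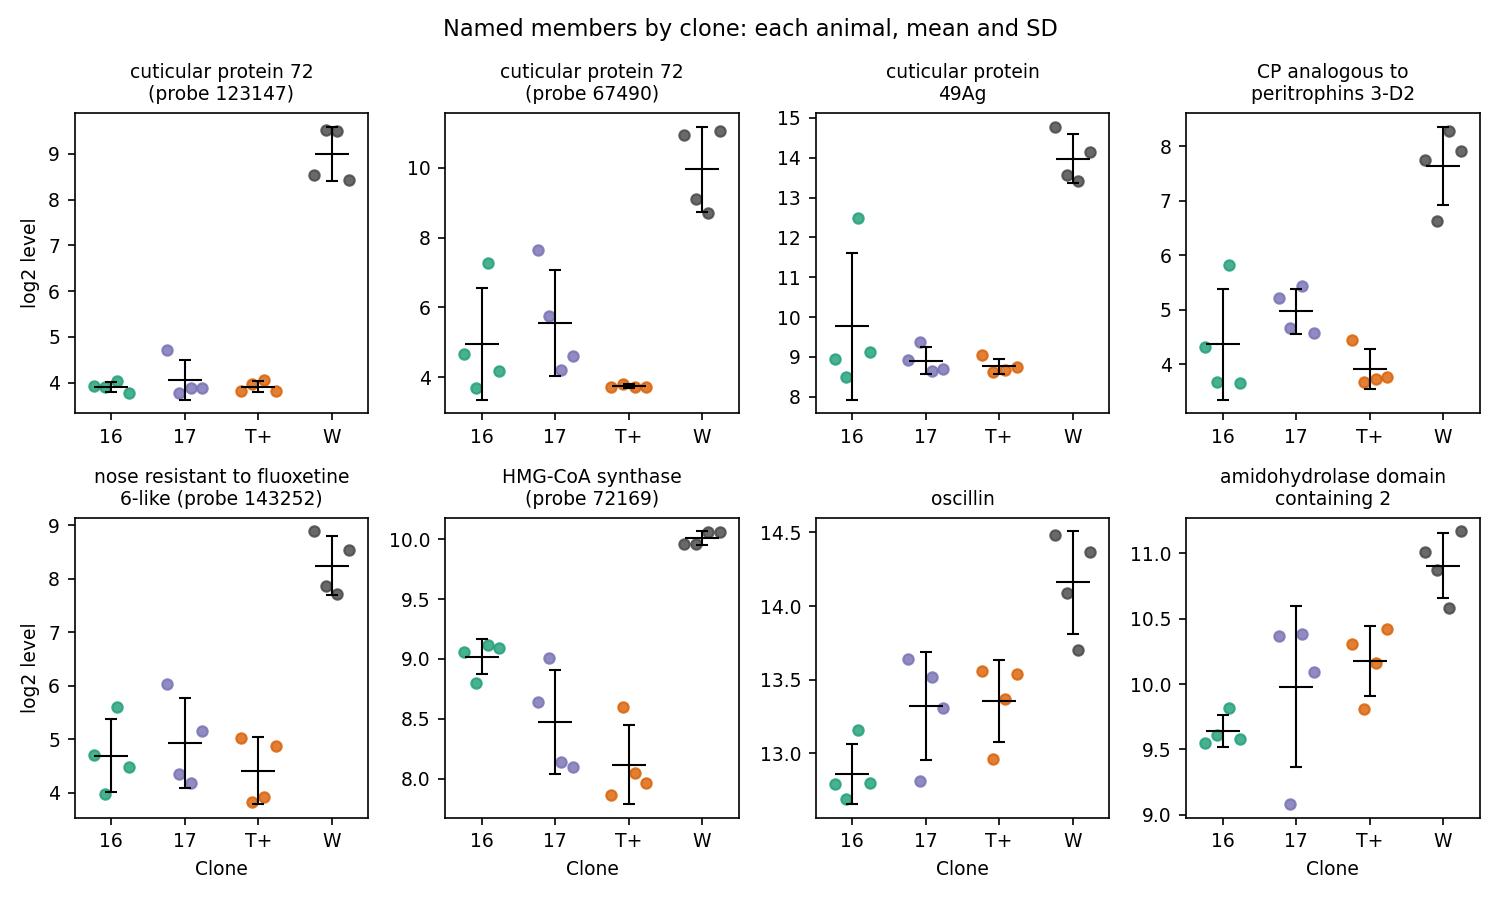
Levels of 8 named members (log2 processed signal after quantile normalization, a separate scale in each panel) in clone 16, clone 17, T+ and W. Points are animals 3, 5, 7 and 9 from left to right, and the bars are the mean and SD of the 4. In cuticular protein 49Ag a single clone 16 animal, at 12.49, stands between the other mutants and W, while the 4 W animals of the HMG-CoA synthase probe lie between 9.96 and 10.06.

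Hydroxymethylglutaryl-CoA synthase (HMG-CoA synthase) joins acetyl-CoA to acetoacetyl-CoA, a step of the mevalonate pathway in the cytosol and of ketone body synthesis in mitochondria of mammals. All 3 member probes, CUST_72169_PI429715507, CUST_87067_PI429715507 and CUST_7515_PI429715507, are assigned by the annotation to 1 gene model, with both a cytosolic and a mitochondrial name. The first had 9.06, 8.80, 9.12 and 9.09 in clone 16, 8.64, 9.01, 8.14 and 8.10 in clone 17 and 7.86, 8.60, 8.05 and 7.96 in T+, against 9.96, 9.96, 10.06 and 10.06 in W. The W animals agreed to within 0.10, and the mutants spread over more than 1 log2 unit below them. The means were 1.99-fold lower in clone 16, 2.90-fold lower in clone 17 and 3.71-fold lower in T+.

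The other 2 member probes of that gene model were lower in all 3 clones too, as the rule requires. The annotation lists 1 further tested probe of this model, which is not a member and is not described here. The second probe was 1.93-fold lower in clone 16, 2.41-fold lower in clone 17 and 2.75-fold lower in T+ than in W, and the third 2.06-fold, 2.44-fold and 2.80-fold in the same clones. On all 3 probes the same 5 mutant animals were the lowest: animals 7 and 9 of clone 17 and animals 3, 7 and 9 of T+. These probes share 1 gene model and are not independent measurements of the pathway.

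Amino sugar metabolism was represented by a pair of enzymes that act one after the other on N-acetylglucosamine phosphate. Amidohydrolase domain containing 2 is the name of the mammalian deacetylase of N-acetylglucosamine-6-phosphate, and oscillin is an old name of the deaminase that turns the product, glucosamine-6-phosphate, into fructose-6-phosphate. CUST_51858_PI429715507, amidohydrolase domain containing 2, had 9.55, 9.61, 9.82 and 9.58 in clone 16, 10.37, 9.08, 10.38 and 10.09 in clone 17 and 10.31, 9.81, 10.16 and 10.42 in T+, against 11.01, 10.87, 10.58 and 11.17 in W. Oscillin, isoform D, on CUST_25449_PI429715507, had 12.79, 12.69, 13.16 and 12.80 in clone 16, 13.64, 12.81, 13.52 and 13.31 in clone 17 and 13.56, 12.96, 13.37 and 13.54 in T+, against 14.48, 14.09, 13.70 and 14.37 in W. On both probes the order of the mutant animals was turned round relative to HMG-CoA synthase: animals 7 and 9 of clone 17 and animals 3, 7 and 9 of T+ were among the 6 highest, together with animal 3 of clone 17. Amidohydrolase domain containing 2 was 2.41-fold lower in clone 16, 1.90-fold in clone 17 and 1.66-fold in T+ than in W, and oscillin 2.47-fold, 1.79-fold and 1.74-fold.

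Nose resistant to fluoxetine protein 6 is known from *Caenorhabditis elegans*, where worms without it resist the paralysis of the nose muscles that fluoxetine, a serotonin reuptake inhibitor, provokes. It is a membrane protein related to acyltransferases. CUST_143252_PI429715507 had 4.71, 3.98, 5.61 and 4.47 in clone 16, 6.03, 4.35, 4.18 and 5.15 in clone 17 and 5.02, 3.82, 3.92 and 4.88 in T+, against 8.89, 7.86, 7.71 and 8.53 in W. With cuticular protein 72 on CUST_123147_PI429715507 it was 1 of 2 members with no mutant animal marked, and the bounds were at least 5.77-fold lower in clone 16, 4.72-fold in clone 17 and 4.36-fold in T+. CUST_138878_PI429715507, of another gene model with the same name, had 6.15, 5.06, 7.45 and 6.12 in clone 16, 8.66, 5.99, 7.51 and 7.47 in clone 17 and 7.42, 4.92, 6.44 and 6.95 in T+, against 10.11, 9.10, 9.12 and 10.13 in W. Animal 3 of clone 17 was the highest mutant on both probes, and animals 5 of clone 16 and of T+ were the lowest on the second.

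Of the remaining 3 named members, contactin associated protein 1 lay furthest below W. Alkylglycerone phosphate synthase, the peroxisomal enzyme that forms the ether bond of ether lipids, had means of 7.37 ± 0.32 in clone 16, 7.61 ± 0.29 in clone 17 and 7.34 ± 0.24 in T+, against 8.24 ± 0.15 in W (SD, n = 4 each), on CUST_50048_PI429715507. The beta 1,3-galactosyltransferase, polypeptide 5, which adds galactose to N-acetylglucosamine of sugar chains, had 7.01 ± 0.46, 6.86 ± 0.25 and 6.50 ± 0.22 in clone 16, clone 17 and T+, against 7.80 ± 0.16 in W. Contactin associated protein 1, an adhesion protein of nerve fibres in mammals, had 6.79 ± 0.52, 6.73 ± 0.81 and 5.74 ± 0.66 in the same mutants, against 8.33 ± 0.65 in W, with differences of -1.54, -1.59 and -2.59. It was marked above background on 1 of 4 T+ arrays.

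Among members with no name the widest gaps belonged to CUST_113921_PI429715507 and CUST_33742_PI429715507. The first had 3.73, 3.86, 6.66 and 3.66 in clone 16, 5.53, 4.55, 3.86 and 3.71 in clone 17 and 4.57, 3.80, 3.76 and 3.86 in T+, against 10.40, 10.94, 10.84 and 10.30 in W. It was at least 25-fold lower in clone 17 and at least 22.6-fold lower in T+ than in W, and 1 mutant, animal 7 of clone 16, was marked. The second had 9.33, 9.68, 9.80 and 9.30 in clone 16, 9.76, 9.87, 7.20 and 7.21 in clone 17 and 7.63, 9.76, 6.70 and 7.71 in T+, against 14.89, 12.98, 12.74 and 14.48 in W. Here the same 5 animals as for HMG-CoA synthase, animals 7 and 9 of clone 17 and 3, 7 and 9 of T+, lay more than 1 log2 unit below the other 7 mutants.

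Over the 120 members the gap had a median of 0.45 on the log2 scale, exceeded 1 in 18 members and was under 0.1 in 26. The 3 members at the edge had gaps of 0.0024, 0.0031 and 0.0055, and the 3 probes nearest to it outside had 0, 0 and -0.0006, so the set has no natural border. The median difference from W was -2.13 in clone 16, -2.20 in clone 17 and -3.17 in T+, a size that the rule itself favours, while the medians over the 17286 probes tested were 0.11, 0.07 and 0.06. With members that no array of a clone marked set at their bound, the medians were -2.13, -2.16 and -2.53. Counted the same way, at least 4-fold lower than W were 65 members in clone 16, 62 in clone 17 and 72 in T+, and at least 16-fold lower 16, 16 and 32. Of all probes tested, at their fitted values, 3.07%, 1.41% and 2.36% were at least 4-fold lower in these clones. In 70 members the signal was marked well above background on all 12 mutant arrays, in 35 on 5 to 11 of them, and in 15 on 4 or fewer. Members marked on no array of a clone numbered 3 in clone 16, 9 in clone 17 and 22 in T+.

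**Figure D2:**
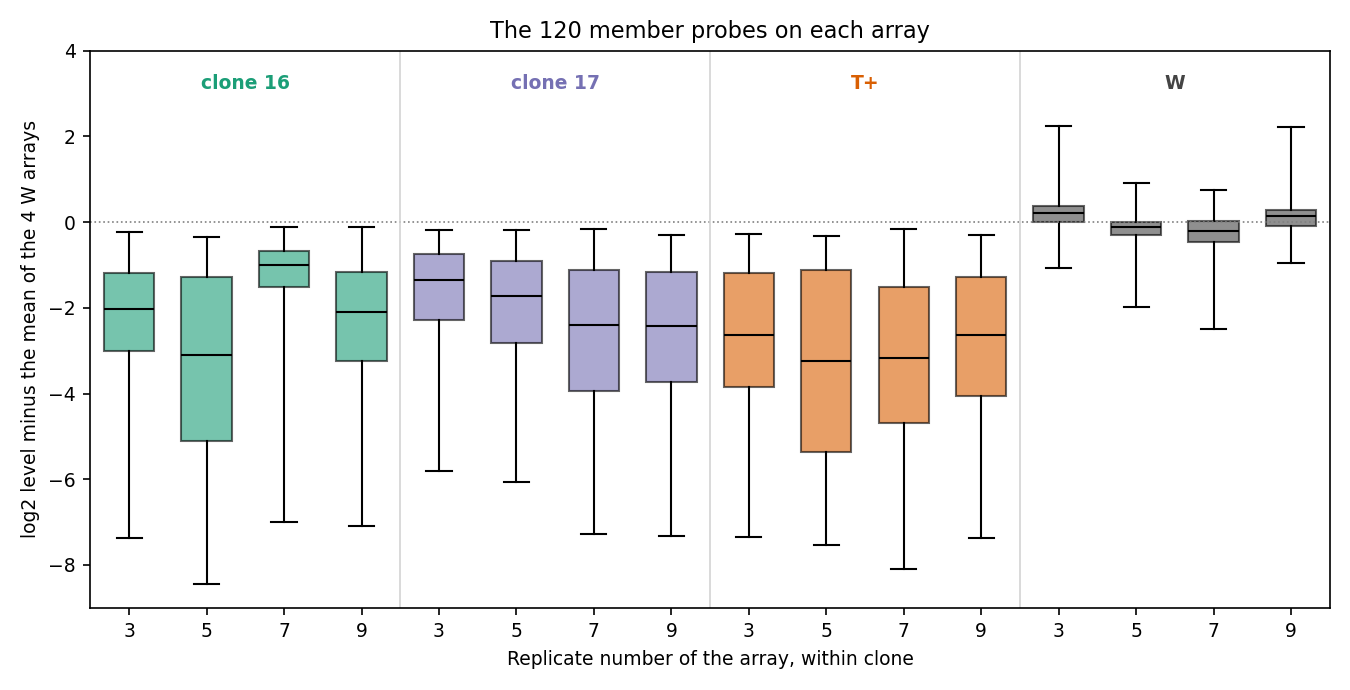
Difference of the 120 members from the mean of the 4 W arrays (log2), on each array of clone 16, clone 17, T+ and W by replicate number. Lines in the boxes are medians, boxes span the quartiles and whiskers the whole range. Array medians of the mutants run from -0.99 (clone 16, animal 7) to -3.25 (T+, animal 5), and those of W from -0.20 to 0.20.

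The members did not fall by the same amount in all mutants. The median of the members relative to the W mean was -2.02, -3.09, -0.99 and -2.09 in animals 3, 5, 7 and 9 of clone 16, -1.36, -1.71, -2.41 and -2.43 in clone 17 and -2.62, -3.25, -3.17 and -2.63 in T+, against 0.20, -0.11, -0.20 and 0.15 in W. The T+ animals were all low, but animal 5 of clone 16 was as low as they were. Over the same arrays the median of all tested probes stayed between -0.16 and 0.16.

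Animal 7 of clone 16 was the highest mutant for 58 of 120 members (48.3%) and animal 3 of clone 17 for 31 (25.8%), so these animals set the gap of 89 members. Among the 8649 probes marked on all W arrays these shares were 8.49% and 6.36%. Both animals together held the top places among the mutants in 39 members (32.5%), against 1.58% of the same 8649 probes. At the other end, animal 5 of clone 16 and animal 5 of T+ were the lowest of all 16 animals in 38 members (31.7%), against 8.37% of the same probes. In 8 of the 38 the next mutant stood more than 2 log2 units higher. Those 2 arrays lay at the same place, row 1 and the fourth place along, on different slides. The part of the place in this was not tested. Both pairs of animals were picked after the members' values had been seen.

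**Figure D3:**
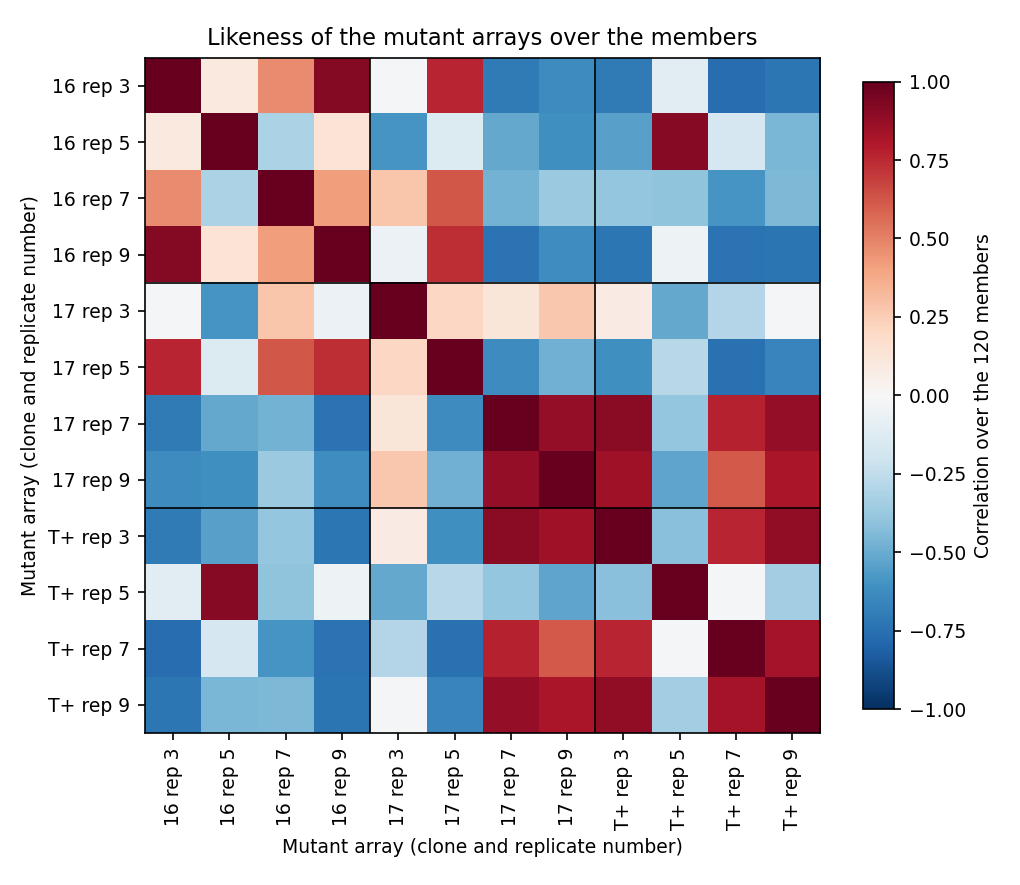
Correlation between mutant arrays over the 120 members, each member first centred on its mean over the 12 mutant arrays. Rows and columns are the arrays of clone 16, clone 17 and T+ by replicate number. Animal 5 of clone 16 and animal 5 of T+ reach 0.91, and the 5 arrays 17 rep 7, 17 rep 9, T+ rep 3, T+ rep 7 and T+ rep 9 correlate with each other between 0.61 and 0.90.

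The mutant animal most like another came from a different clone in some cases and from its own in others. Each array had more arrays of other clones than of its own to be matched with. After each member had been centred on its mean over the 12 mutant arrays, the array most like a given one came from the same clone in 5 of 12 cases, and in 7 of 12 over all probes tested. Animals 3 and 9 of clone 16 correlated at 0.92, and animal 5 of clone 17 with the first of them at 0.76. Animals 7 and 9 of clone 17 and animals 3, 7 and 9 of T+ correlated with each other between 0.61 and 0.90. Over the members animal 3 of clone 17 resembled no other animal, with 0.28 as its highest value. Over all probes tested it reached 0.64, with animal 9 of its own clone. Over all probes tested, animals 3 and 9 of clone 16 correlated at 0.88 and animals 7 and 9 of clone 17 at 0.90. Across clones, animal 3 of T+ and animal 9 of clone 17 reached 0.88, and animals 5 of clone 16 and of T+ 0.87. The likeness of these pairs was thus not particular to the members. The correlations over the members rest on probes that share arrays and in part transcripts, and are given as a description. The 5 animals 7 and 9 of clone 17 and 3, 7 and 9 of T+ lay below the other 7 mutants in 22 members (18.3%) and above them in 1 (0.833%), against 10.6% and 4.6% of the probes marked on all W arrays. These 5 were grouped after their values on the members had been seen, so the counts are a description and no test.

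The W animals also differed among themselves. Animals 3 and 9 both lay above animals 5 and 7 in 68 of 120 members (56.7%), against 24.2% of the probes marked on all W arrays. For each other pair of W animals the share of members was 4.17% to 12.5%, below its share of those probes (8.95% to 21.0%). The pair was picked from these values, which the rule had also used. The range over the 4 W animals had a median of 0.71 on the log2 scale and reached 4.75. It exceeded 1 in 38 members (31.7%), against 24% of the probes marked on all W arrays. Within clones, the median SD of a member was 0.80 in clone 16, 0.59 in clone 17, 0.49 in T+ and 0.31 in W, whereas over the probes marked on all W arrays it was 0.18, 0.20, 0.21 and 0.26. The rule asks for a high lowest value in W and sets no limit on the spread among mutants.

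The rule did not use differences between mutant clones, and these were tested. In limma's test of the mean of clones 16 and 17 against T+, over all 17286 probes, none of the 120 members was called (adjusted p below 0.05 together with 1.5-fold or more; lowest adjusted p 0.265), where 0.0231% of all probes were called higher and 0.0289% lower. At an unadjusted p below 0.05, 34 members (28.3%) were higher in the bi-allelic clones and 0 lower, against 4.93% and 4.25% of all probes. The fitted difference was above 0 in 101 members and below 0 in 19, with a median of 0.59 (quartiles 0.15 and 1.25) against 0.04 over all probes. Of the 120 members, 98 were marked on at least 1 T+ array, and for these the median was 0.49, with 79 above 0 and 24 of the 34 just counted. T+ had the lowest of the 3 mutant means in 90 members (75%), against 40.5% of all probes tested, clone 16 in 25 and clone 17 in 5. Without animal 5 of T+, 6 members were called, all higher in the bi-allelic clones, while 2.35% of all probes were called. With array weights 25 members were called, 24 of them higher, while 13.1% of all probes were.

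**Figure D4:**
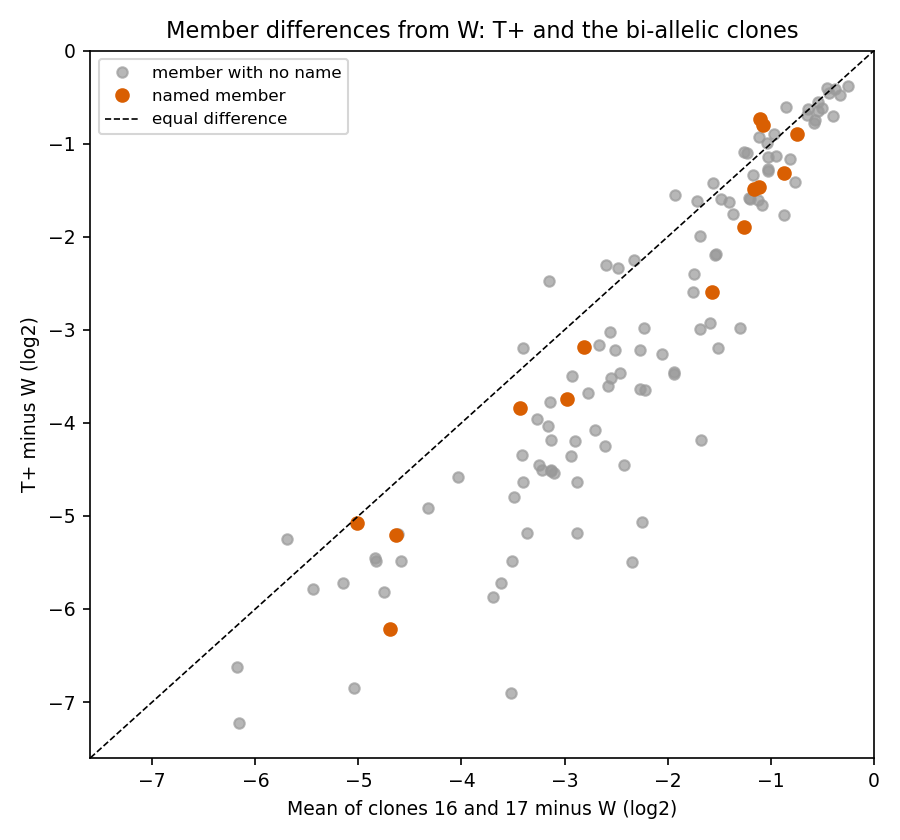
Difference from W (log2) of each member, with the mean of clones 16 and 17 on the horizontal axis and T+ on the vertical one. The dashed line marks equal differences. Of the 120 members, 101 lie below it, both axes share the 4 W arrays, and the 22 members marked on no T+ array are drawn at their fitted value.

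No named member passed the test in that comparison, and their fitted differences had both signs. HMG-CoA synthase on CUST_72169_PI429715507 had a difference, bi-allelic clones minus T+, of 0.63 ± 0.17 (SE), with an unadjusted p of 0.00303 and a limma adjusted p of 0.540. For contactin associated protein 1 it was 1.02 ± 0.39 (limma adjusted p 0.540) and for the beta 1,3-galactosyltransferase 0.44 ± 0.18 (limma adjusted p 0.540). For amidohydrolase domain containing 2 the difference was -0.36 ± 0.22 (limma adjusted p 0.561) and for oscillin -0.27 ± 0.19 (limma adjusted p 0.604). Cuticular protein 72 on CUST_123147_PI429715507 was not marked in any mutant, so no difference between mutant clones could be measured for it.

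Clone 16 against clone 17 gave no member call either, with a lowest limma adjusted p of 0.235, where 1 probe of 17286 (0.00579%) was called higher and 0 lower. At an unadjusted p below 0.05, 8 members (6.67%) were higher and 10 (8.33%) lower in clone 16, against 7.23% and 8.76% of all probes. The median difference was -0.01, against 0.05 over all probes, with 58 members higher and 62 lower. Without animal 5 of clone 17, 8 members were called, 5 of them higher in clone 16, while 10.4% of all probes were called. Without animal 5 of T+ 4 members (3.33%) were called, against 2.34% of all probes, and with array weights 25 (20.8%), against 19.7%.

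In the study's lists of annotated probes, chosen on these arrays, members were spread over several terms. Of 51 listed probes 45 were tested, and 14 were members. Cuticle development held 12 listed probes with 3 members, lipid biosynthesis 15 with 5, aminosugar metabolism 9 with 3, acyl transferases 10 with 3, and isoprenoid biosynthesis 4 with none. Of the 45 tested, 1 that was no member, from the chitin binding list, was called by limma as higher in the bi-allelic clones than in T+, and 0 were called between clones 16 and 17 (lowest adjusted p 0.235).

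Several members measured the same gene model. The 92 members with a gene model belonged to 69 models, of which 16 had 2 or more member probes, 39 in all, and the largest held 5. In 12 of these 16 models the member probes' differences from W lay within 1 log2 unit of each other in every clone. Each of these probes had met the rule, so their shared direction was fixed in advance. Some models have further tested probes in the annotation that are not members, among them 2 for the model with 5 member probes. Only 329 probes have a gene model there, so other probes of a model may be missed. Over the 12 mutant arrays the lowest correlation between probes of a model had a median of 0.94 and was 0.67 at the least. In the model with 5 probes the differences from W ran between -2.78 and -2.23 in clone 16, between -4.62 and -3.10 in clone 17 and between -5.87 and -3.16 in T+. The second probe of the nose resistant to fluoxetine model on CUST_138878_PI429715507 followed the first at a correlation of 0.97.

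The slides and the places on them were not balanced. The headers name 2 slides, with 6 mutant arrays each and with 2 W arrays on slide 1 and 1 on slide 2, and the array of W animal 7 has no header. Within slide 1 the median member difference from W was -2.74 in clone 16, -2.26 in clone 17 and -2.58 in T+, and within slide 2 it was -1.55, -2.11 and -3.31. At the first place along the slide lay 3 W arrays and 1 mutant, animal 7 of clone 17. Local background was 35.0 to 37.0 intensity units there and 41.0 to 47.0 at the other places. The mutant at that place, on slide 2, differed from the 3 W arrays there, which lay on both slides, by a median of -2.63. The positions of its spots, and no header, put W animal 7 at the fourth place. The 3 mutants at that place differed from it by -2.61. The rule puts every mutant animal below every W animal, so all these differences within a slide or place were bound to be negative. With slide as a block and without W animal 7, the medians were -2.17 in clone 16, -2.24 in clone 17 and -3.23 in T+. With place along the slide as a block they were -2.46, -2.60 and -3.52, against -2.13, -2.20 and -3.17 with no block. The part of slide and place in the size of the differences was not tested.

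The number of probes found depended on single arrays, most of all on that of W animal 7. This array had 9852 probes marked well above background, the fewest of the 16 (up to 14617). The 95th percentile of its negative control spots was 7.01 on the log2 scale, the highest of the 16 (lowest 4.99). It was the lowest W array for 63 of 120 members (52.5%), against 30.0% of the probes marked on all W arrays. Without it 212 probes met the rule in place of 122. Without W animal 3 the count was 180, without animal 3 of clone 17 it was 170, and without animal 7 of clone 16 it was 155. After scaling to the 75th percentile in place of quantile normalization, 79 of the 120 members remained separated, and W animal 7 was the lowest W array for 39 of the 41 that did not. That array had the highest 75th percentile of the 16 (6.79 on the log2 scale, lowest 5.75), the level that this scaling sets equal. With that array left out of the scaled values, 115 were separated, but leaving out an array always makes the rule easier to meet.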

How the data were processed

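The authors deposited, for each of 16 one-colour Agilent arrays, spot intensity files from Agilent Feature Extraction (10.5.1.1 in the file headers), with a processed signal corrected for background and a mark for spots well above it. They also deposited normalized log2 values, which come from quantile normalization of the processed signal with the median of each probe then subtracted. The rule was applied to those values. Levels and tests used the processed signal: control spots were left out, 49 to 122 outlier spots per array were set to missing, repeated spots of a probe were averaged on the log2 scale, and arrays were quantile normalized in R 4.3.3. No member was saturated. Probes above the 95th percentile of 2840 negative control spots on at least 4 arrays were tested (17286 of 51424), and all 120 members passed.

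limma 3.58.1 was used to fit the 4 clones in 1 model, with two-sided tests and Benjamini-Hochberg adjustment over all probes tested. The fit was tested on simulated data. Calls required 1.5-fold and an adjusted p below 0.05. Signal over background and the number of arrays limit the precision, and the animals within a clone are genetically identical.

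The members and the lists were chosen with earlier results of these data known. Named were all annotated members and the 2 unnamed members with the widest gaps. Gene names came from the study's annotation, in which 329 probes have a gene model. The labels do not say that replicate numbers pair the animals, and they were not used as pairs. The alternatives were other scalings and background corrections, other filters, blocks for slide, place and replicate number, array weights, other fold limits and each array left out. The blocks by place and by a slide assumed for W animal 7, and the joint omission of animal 5 of T+ and of clone 16, were added after seeing the data. The authors' lists of changed probes were not used for values.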

Additional observations from a re-analysis of the deposited data

Results flagged for a closer look

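Of 68 groups of 4 animals checked, for 16 members and for the median over members, 6 held an animal far from the other 3, where chance gives about 1 in 20. Cuticular protein 49Ag was at 12.49 in animal 7 of clone 16, against 8.50 to 9.12 in the other 3 animals of the clone. The unnamed CUST_113921_PI429715507 was at 6.66 in the same animal, against 3.66 to 3.86 in the others, and at 4.57 in animal 3 of T+, against 3.76 to 3.86. Cuticular protein 72 on CUST_123147_PI429715507 was at 4.72 in animal 3 of clone 17, against 3.78 to 3.89. The cuticular protein analogous to peritrophins 3-D2 was at 4.45 in animal 3 of T+, against 3.68 to 3.77. Cuticular protein 72 on CUST_67490_PI429715507 was at 3.82 in animal 5 of T+, against 3.71 to 3.73. The last 4 values, in T+ and clone 17, belong to animals whose probe was not marked well above background.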

How the results depend on the processing

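The number of probes meeting the rule was 122, but 81 after 75th percentile scaling (79 of the 120 members), 523 with the arrays of slide 1 alone, 2027 with those of slide 2 alone, and 122 to 212 with 1 array left out. Fewer arrays make the rule easier to meet. Normexp background correction moved the members' median difference from W to -1.64 in clone 17 and -2.16 in T+, and place along the slide as a block moved it to -2.60 and -3.52. Without animal 5 of T+ and of clone 16 together it was -2.84 in T+. With 1 array left out it was between -2.53 and -1.64 in clone 16, between -2.37 and -1.92 in clone 17 and between -3.22 and -2.84 in T+.

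No member was called between mutant clones, except as follows. The bi-allelic clones against T+ gave 25 with array weights (20.8%, against 13.1% of all probes) and 0 to 6 with 1 array left out. Clone 16 against clone 17 gave 25 with array weights (20.8%, against 19.7% of all probes), 1 with only the arrays of those clones (0.833%, against 0.0752%), and 0 to 8 with 1 array left out. The median difference over members with 1 array left out was 0.36 to 0.73 for the first comparison and -0.24 to 0.25 for the second. The cause of these changes was not tested.

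Same-numbered animals of different clones deviated from their clone means with correlations between -0.35 and 0.80, and 14 of 24 pairs exceeded 0.1, among them all 4 pairs of clone 17 with T+. Of 16 arrays, 9 were most like an array of their own number in another clone, a hint from the data and not from the design. Since not every pair exceeded 0.1, the numbers were not taken as pairs. With a replicate block, 0 members were called in either comparison. The medians, 0.59 and -0.01, could not change, because every clone has the same replicate numbers. The lowest limma adjusted p of a member was 0.367 for the bi-allelic clones against T+ (0.265 without the block). For clone 16 against clone 17 it was 0.0854 (0.235 without the block).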
